A study of Mus musculus with 2 samples.

Results

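The genes described here carry insulin-like growth factor (IGF) signals: the ligand gene Igf1, the receptor genes Igf1r and Insr, the adaptor genes Irs1 and Irs2, and the binding protein genes Igfbp2, Igfbp3, Igfbp4, Igfbp5 and Igfbp7. They were taken by gene symbol, and all 10 were found among the 24062 genes of the count tables. The tables hold RNA sequencing counts of 2 libraries from C57BL6 mouse aortas at embryonic day 11, of cells the labels call haematopoietic progenitors. The Gata2Venus-negative group had 1 library, of CD31+ KITint cells sorted as lacking Gata2Venus signal. The Gata2Venus-positive group had 1 library, of CD31+ KITint cells sorted as carrying that signal. Gata2Venus is a fluorescent reporter for Gata2, a transcription factor of blood stem and progenitor cells. CD31 is an endothelial and blood cell surface protein, KITint stands for an intermediate level of the receptor KIT, and both gates were shared by the groups. How many embryos were pooled is not given in the labels. The series concerns Gata2-independent progenitors, and the question put to these genes is how their levels differ between reporter-negative and reporter-positive cells.

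IGF1 and its relative IGF2 are secreted growth factors that bind the IGF1 receptor, a tyrosine kinase closely related to the insulin receptor. The active receptors phosphorylate the insulin receptor substrates IRS1 and IRS2, which recruit PI3 kinase and so switch on AKT and hold FOXO transcription factors out of the nucleus. A second arm runs through SHC, GRB2 and SOS to RAS and ERK. Most IGF in tissue fluid is held by IGF binding proteins, which shield it from the receptor until they are cleaved, and IGF signals are major drivers of embryonic growth.

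Counts in genes totalled 10135400 in reporter-negative and 9715131 in reporter-positive cells. Levels are given as CPM, a gene's counts scaled to a common library size, after TMM scaling, with exact Poisson 95% intervals in brackets, and ratios as log2 of negative over positive with exact 95% intervals. Shares of counts have Wilson 95% intervals. Intervals cover counting error only, and since no molecular identifiers are named, copies of a molecule made by PCR are counted as separate reads. Each group is a single library, so the differences have no replicate check and no p-value, and they compare these libraries and not the conditions. A gene was called higher or lower when all of its interval lay beyond 2-fold (a log2 ratio of 1 or -1) and its larger value reached 10 CPM and 50 counts. In a bulk library, fewer cells of a type and less RNA per cell cannot be told apart. Gata2 itself stood at 13.5 CPM in reporter-negative and 70.2 CPM in reporter-positive cells, the direction of the labels. Kit stood at 199 CPM in reporter-negative and 60.7 CPM in reporter-positive cells. It was 3.28-fold higher in reporter-negative cells (log2 ratio 1.71, 1.58 to 1.85) and past the rule, while the KITint gate was shared. Pecam1, which encodes CD31, stood at 537 CPM in reporter-negative and 489 CPM in reporter-positive cells and was not past the rule.

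Of the 9 IGF axis genes that reached 20 counts over both libraries, 1 was higher (Igfbp5) and 3 were lower (Igf1, Insr and Irs2) in reporter-negative cells, and 5 were not past the rule. Among all 12544 genes with that many counts, 12.6% were higher and 12.3% lower, and among the 10381 whose larger value reached 10 CPM and 50 counts, as those of all 9 did, 15.2% and 14.9%. The count of 1 higher of 9 lies close to that background, and 3 of 9 is 33.3%. The 10 genes were chosen with earlier results of these data known. With scaling by total counts Igf1 was not past the rule, which leaves 2 lower. The median log2 ratio was -0.68 over the 9 genes and -0.01 over all 12544. By role, the ligand gene, 1 of 2 receptor genes and 1 of 2 adaptor genes were lower, whereas the 4 measured binding protein genes divided into 2 with a positive and 2 with a negative ratio.

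**Figure D1:**
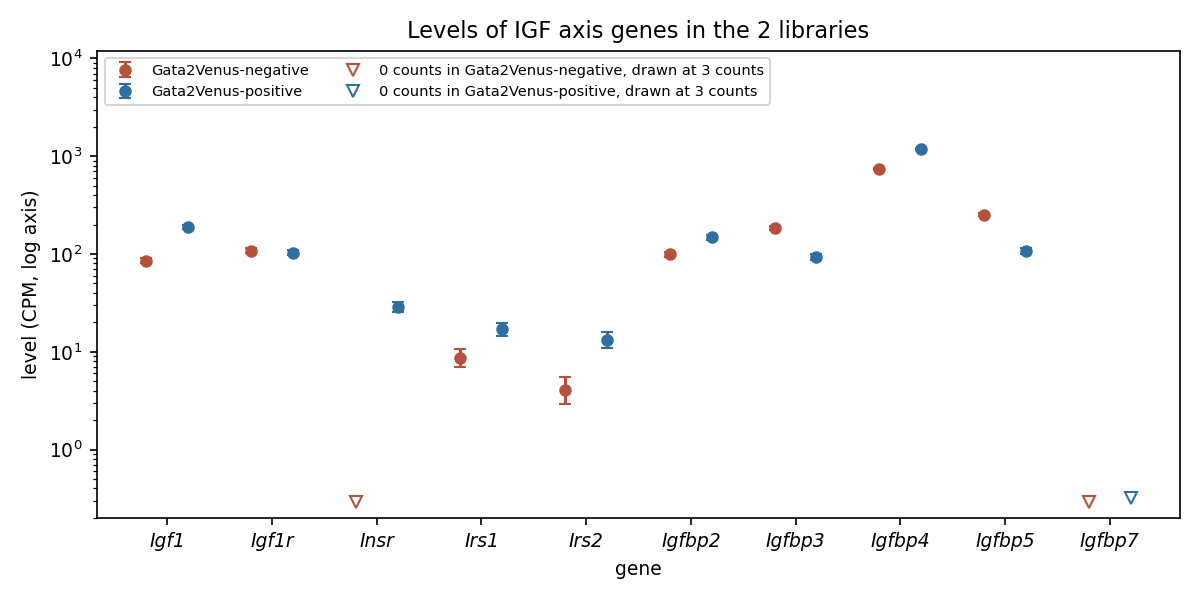
Level of each gene in the Gata2Venus-negative and Gata2Venus-positive library (CPM, log axis), with exact Poisson 95% intervals for counting error; open triangles mark 0 counts and are drawn at the level of 3 counts. Igf1r lies at 108 CPM in reporter-negative and 104 CPM in reporter-positive cells, while Insr has 0 counts in reporter-negative cells and 28.5 CPM in reporter-positive cells.

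Stretches before the start sites are shown for Igfbp5, Igfbp3 and Igfbp4, the binding protein genes whose shares of the counts lay farthest apart between the libraries, and for the ligand gene Igf1. They come from RefSeq's promoter table (build GRCm38.p6), which held 9 of the 10 genes, with Insr not among them. Each is written 5' to 3' on the gene's strand. Capitals mark TATA letters (TATAAA, also with T as the fifth base) or GATA letters (AGATAA, also with T as the first base, G as the last or both), searched on both strands in the 250 bases before each start, with overlapping matches counted separately. Bases that the GENCODE vM21 annotation places in an exon were left off Igfbp5, and 30 bases are shown for Igf1, whose RefSeq start lies 2846 bases downstream of the gene's first annotated base and whose whole window lies in annotated Igf1 exon.
Igfbp5 (chr1:72874885-72875115, minus strand): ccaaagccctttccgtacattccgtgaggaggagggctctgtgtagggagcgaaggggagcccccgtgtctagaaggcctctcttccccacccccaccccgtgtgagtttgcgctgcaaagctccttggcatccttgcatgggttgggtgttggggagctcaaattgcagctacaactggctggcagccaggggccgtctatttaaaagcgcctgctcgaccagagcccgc
Igfbp3 (chr11:7213924-7214173, minus strand): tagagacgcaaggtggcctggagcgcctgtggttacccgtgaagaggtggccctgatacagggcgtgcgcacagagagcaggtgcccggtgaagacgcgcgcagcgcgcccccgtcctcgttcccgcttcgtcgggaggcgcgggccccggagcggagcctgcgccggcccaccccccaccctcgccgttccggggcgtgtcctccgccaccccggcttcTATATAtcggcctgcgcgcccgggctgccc
Igfbp4 (chr11:99040994-99041243, plus strand): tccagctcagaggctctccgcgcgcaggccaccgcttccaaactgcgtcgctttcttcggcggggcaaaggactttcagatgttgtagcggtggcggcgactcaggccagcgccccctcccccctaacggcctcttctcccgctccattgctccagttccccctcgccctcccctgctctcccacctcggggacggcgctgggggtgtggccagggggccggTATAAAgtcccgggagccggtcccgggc
Igf1 (chr10:87861081-87861110, plus strand): ctattctggatagccgAGATAGATAGccat
Igfbp3 and Igfbp4 each had 1 TATA match, whose first base lay 30 and 28 bases before the start, and Igfbp5, Igf1 and the other windows had none. The 2 GATA matches of Igf1 overlap, 14 and 10 bases before the RefSeq start, and none of the other 9 windows held these letters. Of all 32851 windows of the same length, 26.5% held a GATA match and 15.6% a TATA match. These matches are letters in a window, and no binding was measured.

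The ligand gene Igf1 (chromosome 10, 87858265 to 87937042, mm10) was lower in reporter-negative cells. It had 892 counts in reporter-negative and 1779 in reporter-positive cells, or 85.7 CPM (80.1 to 91.5) and 188 CPM (179 to 197). It was 2.20-fold lower in reporter-negative cells, with a log2 ratio of -1.13 (-1.25 to -1.02). The upper end of that interval lies just beyond 2-fold, and with scaling by total counts the log2 ratio was -1.06 (-1.17 to -0.94), which is not past the rule. Genes of a similar level give a measure of how far 2 such libraries differ: among 2421 genes with a mean of 100 to 1000 CPM and more than 3 counts in both libraries, the middle 90% of log2 ratios ran from -1.09 to 1.15. Igf1 lay just below that range. Igf2, the main fetal ligand gene and an imprinted one, was at 990 CPM (10302 counts) in reporter-negative and 1709 CPM (16162 counts) in reporter-positive cells, a log2 ratio of -0.79 (-0.82 to -0.75) that was not past the rule. Both ligand genes thus had the lower value in reporter-negative cells, and Igf1 made up 7.97% (Wilson 95% interval 7.48 to 8.48) of the counts of the pair there, against 9.92% (9.49 to 10.4) in reporter-positive cells. Exons of Igf2 overlap those of an antisense and of a same-strand gene over 64.5% of their length, and no source used here gives the use of strand in counting, so its level is uncertain.

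The receptor genes did not share a direction. Igf1r (chromosome 7, 67952827 to 68233668), the receptor for IGF1 and IGF2, had 1125 counts in reporter-negative and 979 in reporter-positive cells, or 108 CPM (102 to 115) and 104 CPM (97.1 to 110). Its log2 ratio of 0.06 (-0.06 to 0.19) includes equal expression. Insr (chromosome 8, 3122061 to 3279617), the insulin receptor gene, had 0 counts in reporter-negative and 270 in reporter-positive cells, where its level was 28.5 CPM (25.2 to 32.2). The 0, taken as 3 counts, allows a level of up to 0.288 CPM in reporter-negative cells (exact Poisson upper end 0.354 CPM), and Insr was at least 99.1-fold lower there when 0 is set to 3 counts. The exact interval of the ratio ends nearer to equal expression, at 80.0-fold. Insr was 1 of 38 genes with 0 counts in reporter-negative and at least 270 in reporter-positive cells, and 57 genes had the reverse. Of the 12544 genes with at least 20 counts over both libraries, 1.12% had a lower log2 ratio than Insr. Insr took 0 of 1125 counts of the receptor pair in reporter-negative cells, which allows a share of up to 0.267% taken as 3 counts (Wilson upper end 0.340%), and 21.6% (19.4 to 24.0) in reporter-positive cells. Igf2r, whose protein clears IGF2 from the cell surface, was at 275 CPM in reporter-negative and 228 CPM in reporter-positive cells (log2 ratio 0.27, not past the rule), and Insrr, the insulin receptor-related receptor gene, had 0 counts in both.

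Per kilobase of annotated exon, the adaptor genes had the lowest levels among the members with counts in both libraries. Irs2 (chromosome 8, 10984681 to 11008458) had 42 counts in reporter-negative and 125 in reporter-positive cells, or 4.03 CPM (2.91 to 5.45) and 13.2 CPM (11.0 to 15.7). It was 3.28-fold lower in reporter-negative cells (log2 ratio -1.71, -2.25 to -1.20). Irs1 (chromosome 1, 82233101 to 82291416) had 90 counts in reporter-negative and 161 in reporter-positive cells, or 8.64 CPM (6.95 to 10.6) and 17.0 CPM (14.5 to 19.9). Its log2 ratio of -0.98 (-1.37 to -0.60) was not past the rule, though the 2 intervals of the level do not overlap. Ratios scatter widely at these levels. The middle 90% ran from -3.44 to 3.06 for 1400 genes with a mean of 1 to 10 CPM, the band of Irs2, and from -2.11 to 2.21 for 6710 genes of 10 to 100 CPM, the band of Irs1, so both lay inside the range of their band. Irs1 took 68.2% (59.8 to 75.5) of the counts of the adaptor pair in reporter-negative cells and 56.3% (50.5 to 61.9) in reporter-positive cells, and these intervals overlap. A gene on the opposite strand covers 30.9% of the exon length of Irs1 and another covers 2.56% of that of Irs2.

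**Figure D2:**
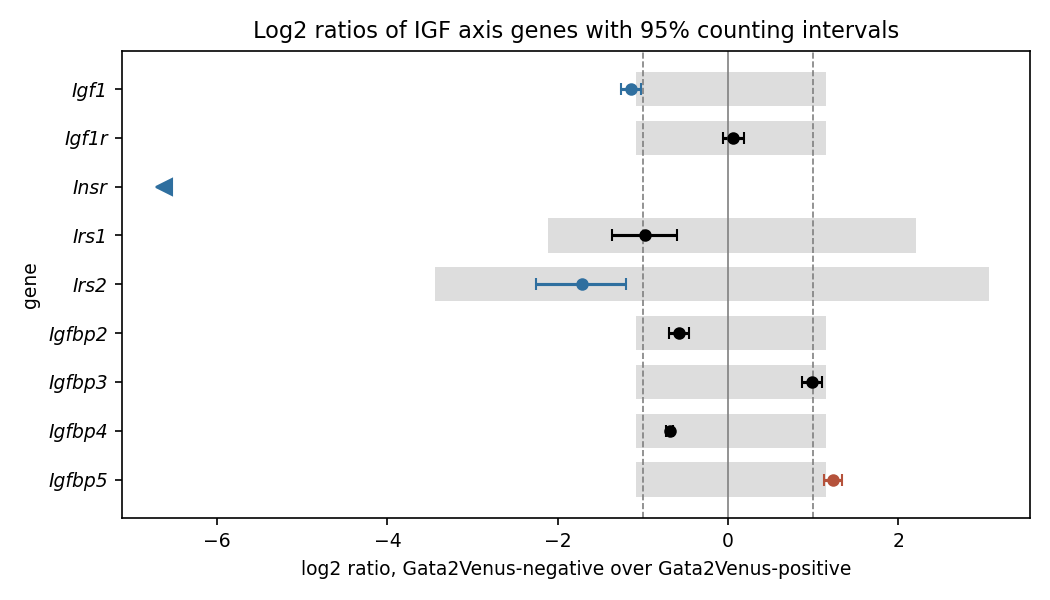
Log2 ratio of Gata2Venus-negative over Gata2Venus-positive for the 9 measured genes with exact 95% counting intervals; red is higher in negative, blue lower and black not past the rule, and the triangle is a bound with 0 set to 3 counts. Grey bars span the middle 90% of log2 ratios of genes of a similar level and dashed lines mark 2-fold: Igf1 and Igfbp5 lie beyond their bars, Irs2 and Igfbp3 within theirs.

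Binding protein genes are described by their total and by the share that each took of it. The 5 genes together held 13314 counts in reporter-negative and 14558 in reporter-positive cells, or 1279 and 1539 CPM, while the parts taken by Igfbp3, Igfbp4 and Igfbp5 differed. Igfbp5 (chromosome 1, 72857932 to 72874884), which encodes a binding protein that also attaches to extracellular matrix, was the member that was higher. It had 2626 counts in reporter-negative and 1014 in reporter-positive cells, or 252 CPM (243 to 262) and 107 CPM (101 to 114). It was thus 2.35-fold higher in reporter-negative cells (log2 ratio 1.23, 1.13 to 1.34), just above the middle 90% of genes of its level. Igfbp3 (chromosome 11, 7206086 to 7213923), the main IGF carrier of adult blood serum, had 1917 counts in reporter-negative and 876 in reporter-positive cells, or 184 CPM (176 to 193) and 92.6 CPM (86.6 to 99.0). Its log2 ratio of 0.99 (0.88 to 1.11) spans the 2-fold line, so it was not past the rule.

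Igfbp4 (chromosome 11, 99041244 to 99054392), whose protein inhibits IGF action until it is cleaved by the protease PAPP-A, had the highest level per kilobase of the members in both libraries. It had 7736 counts in reporter-negative and 11270 in reporter-positive cells, or 743 CPM (727 to 760) and 1192 CPM (1170 to 1214). Its log2 ratio was -0.68 (-0.72 to -0.64), which is not past the rule. Igfbp2 (chromosome 1, 72824503 to 72852474), which encodes a fetal binding protein, had 1035 counts in reporter-negative and 1398 in reporter-positive cells, or 99.4 CPM (93.4 to 106) and 148 CPM (140 to 156). Its log2 ratio of -0.57 (-0.69 to -0.46) was not past the rule either. Igfbp2 and Igfbp5 lie tail to tail on chromosome 1 with 5457 bases between them, and their ratios had opposite signs.

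Within the binding protein counts, Igfbp4 took 58.1% (57.3 to 58.9) in reporter-negative and 77.4% (76.7 to 78.1) in reporter-positive cells. Igfbp5 took 19.7% (19.1 to 20.4) in reporter-negative and 6.97% (6.56 to 7.39) in reporter-positive cells, and Igfbp3 took 14.4% (13.8 to 15.0) in reporter-negative and 6.02% (5.64 to 6.42) in reporter-positive cells. The shares of Igfbp2 lay closest together, at 7.77% (7.33 to 8.24) in reporter-negative and 9.60% (9.13 to 10.1) in reporter-positive cells. None of these share intervals overlap between the libraries, and these intervals cover counting error alone. The shares are of counts not divided by exon length, so they compare the libraries for each gene and do not rank the genes. The log2 ratios of Igfbp2, Igfbp3 and Igfbp4 lay inside the middle 90% of genes of their level.

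**Figure D3:**
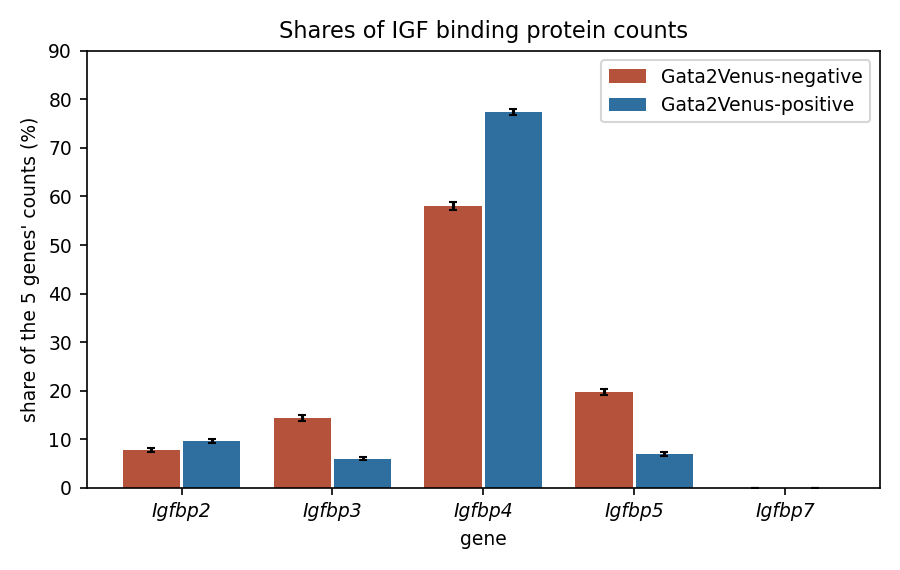
Share of the counts of 5 IGF binding protein genes taken by each, in the Gata2Venus-negative and Gata2Venus-positive library, with Wilson 95% intervals for counting error. Counts are not divided by exon length. Igfbp4 takes 58.1% in reporter-negative and 77.4% in reporter-positive cells, Igfbp5 takes 19.7% in reporter-negative and 6.97% in reporter-positive cells, and Igfbp7 has 0 counts in both.

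Igfbp7 (chromosome 5, 77349240 to 77408041), whose protein binds IGFs weakly and is found in the matrix around blood vessels, had 0 counts in both libraries. That allows a level of up to 0.288 CPM in reporter-negative and 0.317 CPM in reporter-positive cells, and no ratio is given. It was 1 of 10209 genes with 0 counts in both. Its only exonic overlap is with Polr2b on the opposite strand, over 7.03% of its exon length, and Polr2b had 2578 counts in reporter-negative and 981 in reporter-positive cells. What lay behind the 0 of a gene known from vessels, in cells sorted on CD31, was not tested. Of the binding protein genes outside the 10, Igfbp1, which neighbours Igfbp3 on chromosome 11, had 0 counts in reporter-negative and 26 in reporter-positive cells. Igfbp6, Igfbpl1 and Igfals, which encodes the acid-labile subunit of serum IGF complexes, had 0 in both.

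Per kilobase of annotated exon, the 4 measured binding protein genes had the highest levels of the members in reporter-negative cells. Igfbp4, Igfbp2 and Igfbp3 had the highest in reporter-positive cells. In reporter-negative cells Igfbp4 led with 168 CPM per kb, followed by Igfbp3 with 58.8 (56.2 to 61.5) and Igfbp2 with 53.8 (50.6 to 57.2), whose intervals overlap, and then Igfbp5 with 42.0. Igf1 followed with 8.65 and Igf1r with 6.44 CPM per kb, while Irs1 at 0.945 (0.760 to 1.16) and Irs2 at 0.638 (0.460 to 0.862) overlapped. In reporter-positive cells Igfbp4 stood at 270 CPM per kb, Igfbp2 at 80.0 and Igfbp3 at 29.6, and Igf1 at 19.0 (18.1 to 19.9) overlapped with Igfbp5 at 17.9 (16.8 to 19.0). There Igf1r had 6.16 CPM per kb, and Irs2 at 2.09, Insr at 2.08 and Irs1 at 1.86 had overlapping intervals. The exon lengths behind these values are those of all annotated isoforms together and not of the isoforms these cells use.

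Genes around the axis were described by lists of pathway genes, chosen with earlier results of these data known. Over the 5 lists, 6 genes were higher and 7 lower of 55 measured, close to the background of 12.6% higher and 12.3% lower among all measured genes, and the median log2 ratio was -0.05. The genes past the rule are given as a description and do not set these lists apart. Among 6 measured genes for IGFBP proteases and their inhibitors, 1 was higher and 0 lower, with a median of -0.28. This was Htra3, a secreted serine protease gene, with 243 counts in reporter-negative and 0 in reporter-positive cells, a value at least 73.6-fold higher with 3 counts put in place of 0, while its exact interval ends at 59.4-fold. The 2 genes of that list with the highest CPM were Ide, for the insulin-degrading enzyme, at 125 CPM in reporter-negative and 137 CPM in reporter-positive cells (log2 ratio -0.13), and Adam12, a metalloprotease gene, at 35.0 CPM in reporter-negative and 47.5 CPM in reporter-positive cells (log2 ratio -0.44). Pappa, the protease gene for IGFBP4, had 0 counts in reporter-negative and 12 in reporter-positive cells and Pappa2 had 0 in both. These last 2 genes were named after their values were seen.

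Among 16 measured receptor-proximal adaptors and regulators, 3 were higher and 4 lower in reporter-negative cells, beside 12.6% and 12.3% of all measured genes, with a median of 0.04 (-0.21 without the gene at 0 counts in reporter-positive cells). Socs2 and Socs3 encode feedback inhibitors of cytokine and growth hormone receptors. Socs2 had 219 counts in reporter-negative and 41 in reporter-positive cells, 4.85-fold higher (log2 ratio 2.28, 1.79 to 2.80), and Socs3 had 1002 counts in reporter-negative and 247 in reporter-positive cells, 3.69-fold higher (log2 ratio 1.88, 1.68 to 2.09). Sos1 and Sos2, which encode the exchange factors that load RAS with GTP, were both lower. Sos2 had 80 counts in reporter-negative and 322 in reporter-positive cells (4.43-fold lower, log2 ratio -2.15, -2.52 to -1.79) and Sos1 had 100 in reporter-negative and 315 in reporter-positive cells (3.47-fold lower, log2 ratio -1.79, -2.13 to -1.47). Named after their values were seen, Grb14 was the other gene that was higher (3.12-fold), and Grb2 (2.63-fold) and the phosphatase gene Ptpn1 (2.15-fold) were the other genes that were lower. Ptpn1 was not past the rule with scaling by total counts or by DESeq2 size factors. None of the 10 RAS and ERK genes was past the rule, with a median of -0.10. Map2k2, which encodes a kinase of this arm, was at 222 CPM in reporter-negative and 262 CPM in reporter-positive cells.

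In the PI3K, AKT and FOXO list, 2 of 20 measured genes were higher and 3 lower, near the same background of 12.6% and 12.3%, with a median of 0.39. Inpp5d, the gene of the blood cell lipid phosphatase SHIP1, had 13 counts in reporter-negative and 574 in reporter-positive cells, 48.6-fold lower (log2 ratio -5.60, -6.52 to -4.82). Pik3cb, for a catalytic subunit of PI3 kinase, had 3 counts in reporter-negative and 175 in reporter-positive cells (ratio 64.2-fold lower, log2 ratio -6.00, -8.30 to -4.43). Foxo1, a transcription factor gene that AKT signalling restrains, was at 20.4 CPM in reporter-negative and 73.0 CPM in reporter-positive cells, 3.58-fold lower (log2 ratio -1.84, -2.07 to -1.62), and an opposite-strand gene overlaps its exons. Pik3r1, for the main regulatory subunit, was 2.61-fold higher in reporter-negative cells, at 63.1 CPM against 24.2 CPM in reporter-positive cells (log2 ratio 1.38, 1.16 to 1.61). Named after its values were seen, Phlpp1, for a phosphatase that acts on AKT, was the other gene that was higher (2.87-fold).

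**Figure D4:**
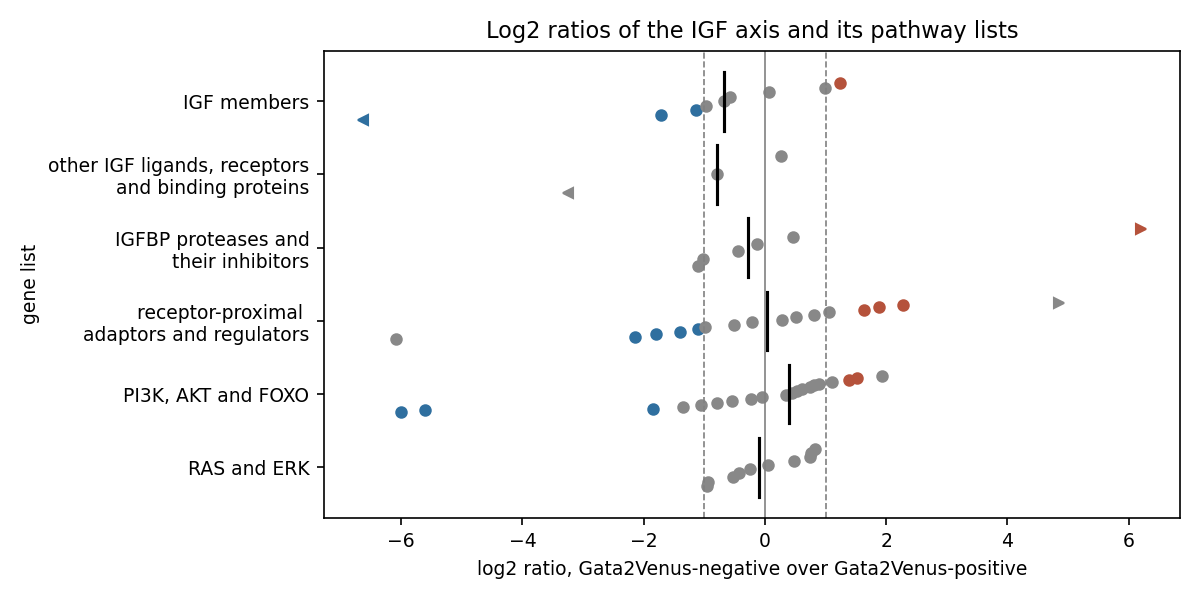
Log2 ratio of Gata2Venus-negative over Gata2Venus-positive for each measured gene of the IGF axis and of 5 pathway lists; red is higher in negative, blue lower, grey not past the rule, triangles are bounds with 0 set to 3 counts, black bars are list medians and dashed lines mark 2-fold. The median is -0.68 for the IGF genes, 0.39 for PI3K, AKT and FOXO and -0.10 for RAS and ERK.

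Markers of several cell types differed between the libraries beside these genes. Their counts stand beside 12.6% higher and 12.3% lower among all 12544 measured genes. The marker lists were chosen with earlier results of these data known. Of 16 mesenchymal and perivascular markers 9 were higher and 0 lower in reporter-negative cells, and their summed level was 9069 CPM there and 5749 CPM in reporter-positive cells. Of the 16, 4 had a negative ratio. Col3a1, at 3249 CPM in reporter-negative and 1310 CPM in reporter-positive cells, was higher. Col1a1, at 1837 CPM in reporter-negative and 1453 CPM in reporter-positive cells, was not past the rule. Twist1 had 0 counts in reporter-positive cells. Of 11 measured macrophage markers, 10 were lower and 0 higher, with sums of 232 CPM in reporter-negative and 1244 CPM in reporter-positive cells. C1qb was at 39.2 CPM in reporter-negative and 246 CPM in reporter-positive cells, and none of the 11 was at 0 in either library. Of 12 endothelial markers 6 were lower and 0 higher, with sums of 2932 CPM in reporter-negative and 5550 CPM in reporter-positive cells. Kdr was at 653 CPM in reporter-negative and 851 CPM in reporter-positive cells, Emcn at 253 CPM in reporter-negative and 893 CPM in reporter-positive cells, and none of the 12 was at 0. Igf1, Igf2, Insr, Irs1, Irs2, Igfbp2 and Igfbp4 had negative ratios, as the medians of the macrophage, endothelial, haematopoietic and megakaryocyte lists had. Igf2r, Igfbp3 and Igfbp5 had positive ones, as the medians of the mesenchymal and epithelial lists had. The interval of Igf1r included equal expression, so its sign is not read. The medians of the erythroid and neural crest lists were negative with genes at 0 set to 3 counts and positive without those genes. Any ratio, positive or negative, shares its sign with some of these medians, so a shared sign does not tie a gene to a cell type. The part of these cells in the values of the IGF genes was not tested.

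The same background of 12.6% higher and 12.3% lower applies to the lists that follow. In lists of 8 or fewer genes, 1 or 2 called genes do not stand apart from it. Of 10 measured haematopoietic markers 5 were lower and 0 higher, with sums of 288 CPM in reporter-negative and 698 CPM in reporter-positive cells. Spn and Gfi1 had 0 counts in both libraries, and Gfi1b and Myb had 0 in reporter-negative cells, so these named markers were not detected there. The other 8 of the 12 listed, Runx1, Ptprc and Itga2b among them, had counts in both libraries. Coro1a was at 90.9 CPM and Laptm5 at 71.7 CPM in reporter-negative cells, against 180 and 186 CPM in reporter-positive cells. Of 8 megakaryocyte markers 5 were lower and 0 higher, with sums of 97.0 CPM in reporter-negative and 395 CPM in reporter-positive cells. Pf4 was at 15.5 CPM in reporter-negative and 154 CPM in reporter-positive cells, and Itgb3 at 49.7 CPM in reporter-negative and 117 CPM in reporter-positive cells. Gp1bb was at 0 in reporter-negative cells, but same-strand genes overlap 92.9% of its exon length, so its level is uncertain. Of 8 measured erythroid markers 3 were lower and 0 higher, with sums of 325 CPM in reporter-negative and 260 CPM in reporter-positive cells and with the globin genes Hbb-y and Hbb-bh1 making up much of them. Hbb-y was at 143 CPM in reporter-negative and 85.9 CPM in reporter-positive cells, and Hbb-bh1 at 103 CPM in reporter-negative and 55.8 CPM in reporter-positive cells. Gata1, Klf1, Epor, Hemgn and Car1 had 0 counts in reporter-negative cells. Of 8 epithelial and coelomic markers 2 were higher and 0 lower, with sums of 492 CPM in reporter-negative and 368 CPM in reporter-positive cells. Krt18 was at 199 CPM in reporter-negative and 117 CPM in reporter-positive cells, Krt8 at 106 CPM in reporter-negative and 127 CPM in reporter-positive cells, and Msln at 0 in reporter-negative cells. Neural crest and sympathetic markers summed to 16.0 CPM in reporter-negative and 71.9 CPM in reporter-positive cells, with 1 of 4 measured lower (Stmn2, with 0 counts in reporter-negative and 372 in reporter-positive cells), 0 higher, Dbh at 9.89 CPM in reporter-negative and 22.8 CPM in reporter-positive cells, and Sox10, Th and Tubb3 at 0 in both. Phox2a and Elavl4 also had 0 counts in reporter-negative cells. Hepatoblast markers summed to 1.92 CPM in reporter-negative and 1.16 CPM in reporter-positive cells, with 0 of 7 measured, and Apoa1, Ttr, Ahsg and Serpina1a at 0 in both. Afp was also at 0 in reporter-negative and Apoa2 at 0 in reporter-positive cells.

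**Figure D5:**
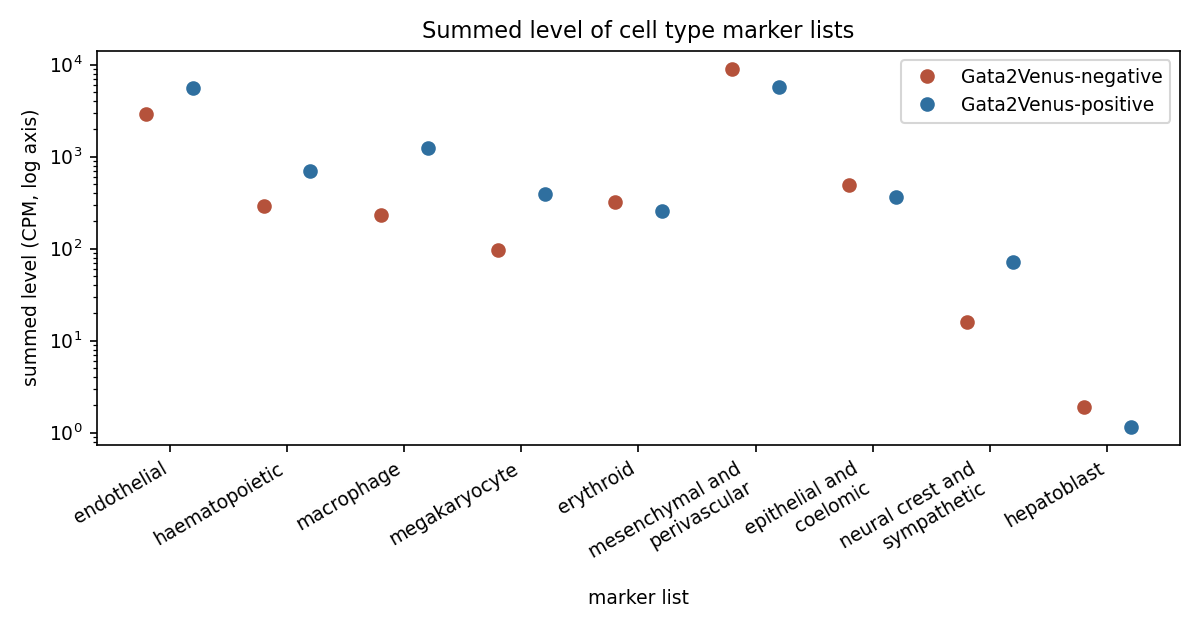
Summed level (CPM, log axis) of 9 cell type marker lists in the Gata2Venus-negative and Gata2Venus-positive library, 1 library each. The mesenchymal sum is 9069 CPM in reporter-negative and 5749 CPM in reporter-positive cells, and the macrophage sum 232 CPM in reporter-negative and 1244 CPM in reporter-positive cells.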

How the data were processed

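RNA of 1 Gata2Venus-negative and 1 Gata2Venus-positive library was extracted with the mirVana kit and amplified by SMARTER, per the labels' protocols. The authors deposited whole-number counts per gene, not normalized. TopHat, Cufflinks, HTSeq and build mm10 are named per the submitters' processing notes. Their versions, the annotation and strand use: not given in the sources used here. The 5 summary rows were left out. Non-unique alignments made up 45.5% of the reporter-negative and 48.2% of the reporter-positive table.

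Counts were scaled by TMM factors (1.03 and 0.974; edgeR 4.0.16, R 4.3.3). Ratio intervals are Clopper-Pearson given each gene's total (SciPy 1.17.1). Genes with at least 20 counts over both libraries are called measured. The steps were tested on simulated data with counting error only, in which every changed gene was changed by more than 2-fold. Calls near the 2-fold line were thus not covered. Positions and exon lengths come from GENCODE vM21, which matched 94.5% of symbols. The members and lists were chosen with earlier results of these data known, and the motifs after the promoters were seen. Named were all members, up to 4 genes per pathway list by how far the interval lay from equal expression, or the 2 of highest CPM where fewer than 2 passed, and the 2 markers of highest CPM per list. The table of protein sequences was not used here, and some genes that this rule names are not reported here. Alternatives were other scalings (DESeq2 1.42.0 size factors among them), filters, folds and depth.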

Additional observations from a re-analysis of the deposited data

How the results depend on the processing

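Scaling by total counts moved every log2 ratio by 0.08. Over 8 alternatives the members' median log2 ratio lay between -0.69 and -0.60. Each scaling shifts all ratios by the same amount, and other count limits left the median at -0.68. This narrow range was thus largely set in advance. Of 45 ratios of 9 members under 5 settings of scaling, depth and zeros, 0 changed sign after a call and 1 call was lost, that of Igf1 with scaling by total counts (log2 ratio -1.06). With an interval beyond 4-fold, 0 members were higher and 1 lower, 1 and 2 pathway genes, and 744 and 751 of all genes. At 50 CPM and 50 counts, 1 member was higher and 1 lower, 2 pathway genes were higher and 4 lower, and 629 and 545 of all genes. The stricter rules admit fewer genes by construction. Leaving out the member at 0 counts in one library, chosen after seeing the data, gave a median of -0.63. No paired analysis was possible because each group has 1 library, and for the same reason no library could be left out. Insr, at 0 counts in reporter-negative cells, has only a bound, and Igfbp7, at 0 in both libraries, has no ratio. Irs2 had 42 counts in reporter-negative cells.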
